A study of Mus musculus with 8 samples.

Results

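The tetraspanins are a family of small membrane proteins, and 10 of them, Tspan8, Cd9, Cd63, Cd81, Cd82, Cd151, Tspan3, Tspan4, Tspan31 and Tspan33, were followed in mouse liver tumors and in the liver beside them. They were taken by gene symbol, each through the probe that carried its single symbol in the array annotation (chosen by the highest mean over the 8 arrays where a gene has several), and all 10 were found among 19938 measured genes. The list was selected on the known tumor minus adjacent difference of Tspan8, around which it was drawn up, so the values of Tspan8 are given as a description with no p-value. The values of the other members come from the same comparison, and the number of members that moved is likewise a description. The 8 samples came from 4 mice, all male and of strain C57BL/6J (M24, M48, M50 and M60), each of which gave 1 piece of hepatocellular carcinoma (tumor, n = 4) and 1 piece of the neighbouring liver (adjacent, n = 4). Every mouse had been injected with a vector made from adeno-associated virus (AAV) when 2 to 3 months old, was kept on a normal diet and was necropsied 18 months later. The adjacent liver had therefore been exposed to the vector too, and no uninjected liver was analysed here. No source used here gives the vector's transgene or promoter.

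Tetraspanins cross the membrane several times and have few enzymatic or receptor activities of their own. They bind integrins, immunoglobulin-like proteins, proteases and each other, and so gather these partners into small membrane domains. Several of them, Cd63, Cd9, Cd81 and Tspan8 among them, are also used as markers of exosomes, the small vesicles that cells release from endosomes.

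RNA of each sample was measured on 1 Affymetrix mouse gene array, and values are on the log2 scale, so that a difference of 1 is a change of 2-fold. The 8 arrays had medians from 4.888 to 5.006. Genes with a mean under 4.597, the lowest 40%, were not tested, and 11963 genes were. Differences are tumor minus adjacent of the same mouse in n = 4 pairs, each with its standard error (SE) and adjusted p from a paired limma fit over all tested genes. The words rose and fell are kept for genes with an adjusted p under 0.05. The fit called 31.9% of the tested genes, 16.3% higher and 15.7% lower in tumors. The adjacent piece of M48 stood somewhat apart, with correlations of 0.9873 to 0.9897 to the other adjacent arrays against 0.9939 to 0.9958 among those, so values without M48 are given for the members. Hepatocyte markers were high in both tissues: albumin (Alb) had means of 13.80 in adjacent liver and 13.91 in tumors, and of 10 such markers 1 rose and 3 fell, with only 1 fall when any single mouse was left out. Because the pieces hold many cell types, fewer cells of a type and less RNA per cell cannot be told apart.

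Among the 10 members, 6 were higher in tumors by the fit over all genes, 0 were lower (also 0 at an unadjusted p under 0.05 by limma) and 4 did not pass, against 16.3% and 15.7% of all tested genes. The 6 were Tspan8, Cd63, Cd9, Cd151, Cd81 and Tspan31, and in these the 4 tumor values lay above the 4 adjacent values, a separation seen in 14.9% of all tested genes. The median difference of the 10 was 0.48, against 0.00 over all tested genes. Their sizes covered a wide range, from 6.98 for Tspan8 to 0.38 for Tspan31. The count was 5 without M24, 7 without M48, 6 without M50 and 4 without M60.

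**Figure D1:**
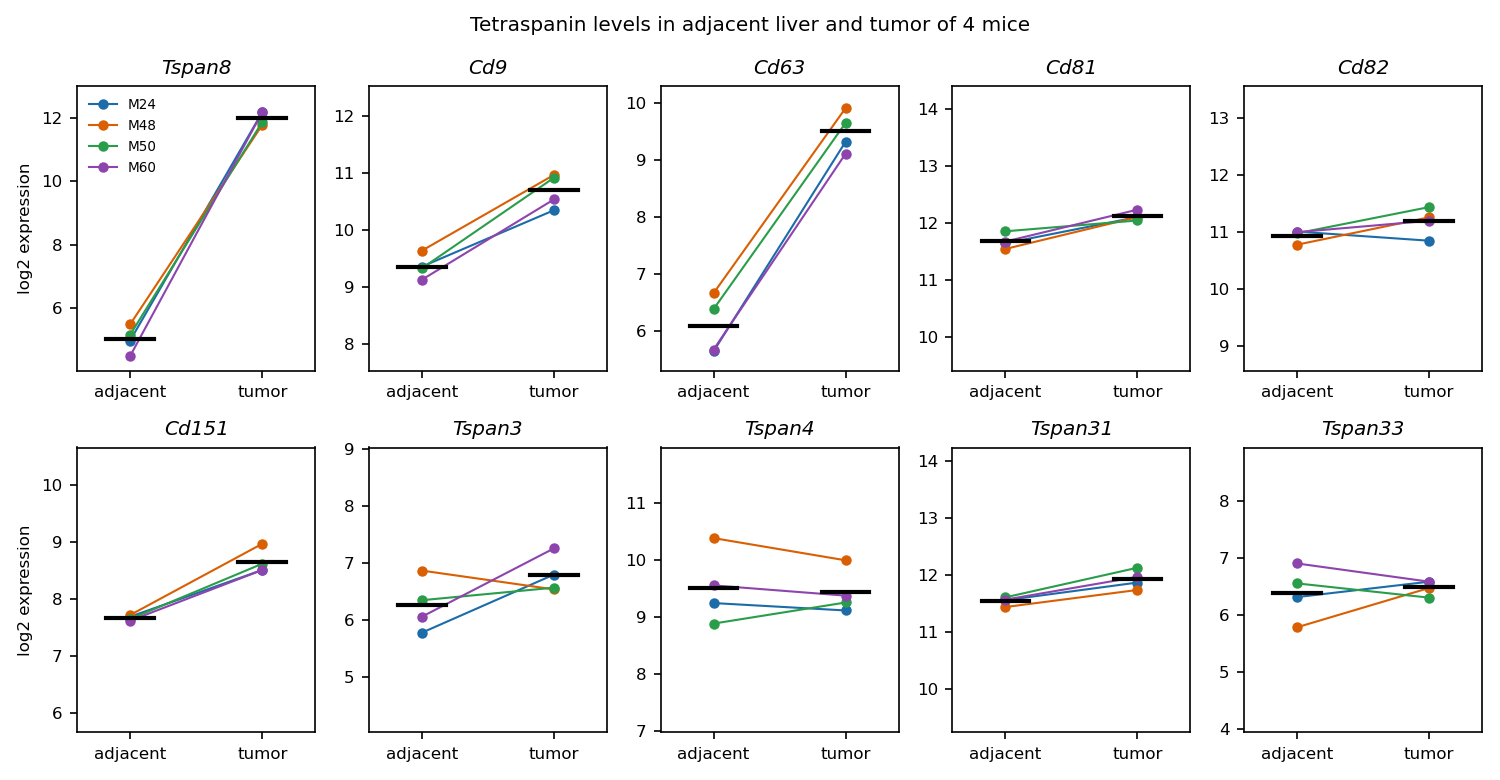
Level of each of the 10 tetraspanins on the log2 scale (y axis, 9 units high for Tspan8 and 5 for the others) in adjacent liver and tumor of the same mouse, joined by a line in the mouse's colour, with black bars at the means of n = 4. Tspan8 climbs from a mean of 5.02 to 12.00 and Cd63 from 6.10 to 9.51 in every mouse, whereas the lines of Tspan3, Tspan4 and Tspan33 cross or run level.

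Tspan8, a tetraspanin of gut and other epithelia that is found in complexes with Epcam, claudin-7 and integrins, had the largest difference among the 30 measured tetraspanins. Its adjacent levels were 4.97, 5.48, 5.15 and 4.48 in the order M24, M48, M50 and M60, and its tumor levels were 12.18, 11.78, 11.87 and 12.18. All 4 adjacent values lay near the bottom of the tested range and all 4 tumor values near the top, with a gap of 6.31 between the groups. The difference was 6.98 (SE 0.216), or 127-fold, and ranged from 6.31 in M48 to 7.70 in M60. It was the gene with rank 2 among the rises of all 11963 tested genes. Without M48 the difference was 7.21. The adjacent mean of 5.02 is only slightly above the filter value of 4.597, and the untested genes below that value had a mean of 3.527, so the exact fold is uncertain.

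The tumors were also more alike in Tspan8 than the adjacent pieces were, with a standard deviation (SD) of 0.207 against 0.415, although the SD of 4 values is itself imprecise. The genes whose profile over the 8 arrays lay closest to that of Tspan8 were sought among all tested genes outside the family, each gene being centred on its own mean. The nearest was Ly6d, a small lipid-anchored surface protein, at a root mean square distance of 0.563 log2 units. It was followed by the prohormone-processing carboxypeptidase Cpe (0.718), the steroid dehydrogenase Akr1c18 (0.81), the lectin-like receptor Klrb1b (0.816) and the trefoil factor Tff3 (0.945). Their differences ran from 5.28 for Tff3 to 8.51 for Akr1c18, and in each of them all 4 tumors lay above all 4 adjacent pieces. Genes chosen for closeness to Tspan8 had to show such large differences and separated groups, so neither is a result about them. The adjacent means of Akr1c18 (3.15), Cpe (4.17) and Klrb1b (4.23) lay under the filter value, so these genes were tested only through their tumor levels, had to differ, and have differences of uncertain size. The distance is a description over 8 arrays that all share the split between tumor and adjacent liver. The nearest member of the family was Cd63, at 1.83.

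Cd63, a tetraspanin of late endosomes, lysosomes and secretory granules, rose next most. Adjacent values were 5.65, 6.67, 6.39 and 5.68 in M24, M48, M50 and M60, and tumor values were 9.33, 9.92, 9.66 and 9.12. The mice kept nearly the same order in both tissues, with M48 highest and M50 next, and the tumors began 2.45 above the highest adjacent value. The difference was 3.41 (SE 0.102, adjusted p = 2.06e-05), or 10.6-fold. It varied little between mice, from 3.25 in M48 to 3.68 in M24, and was 3.46 without M48.

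Cd9, which binds the EWI proteins Igsf8 and Ptgfrn and the growth factor precursor Hbegf, rose by a smaller amount. It stood at 9.35, 9.63, 9.32 and 9.12 in the adjacent pieces of M24, M48, M50 and M60 and at 10.34, 10.96, 10.91 and 10.53 in the tumors. The lowest tumor lay 0.72 above the highest adjacent piece. This gave a difference of 1.33 (SE 0.111, adjusted p = 0.000569), which was also 1.33 without M48. Cd151, the main partner of laminin-binding integrins, was nearly constant in adjacent liver at 7.69, 7.72, 7.65 and 7.62, and reached 8.51, 8.97, 8.62 and 8.51 in the tumors. Its tumors were all higher, the one of M48 most of all. Cd151 thus rose by 0.98 (SE 0.0986, adjusted p = 0.00106), and by 0.89 without M48.

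Cd81, a co-receptor on B cells and an entry factor of hepatitis C virus in human hepatocytes, rose by 0.44 (SE 0.0957, adjusted p = 0.0145). Its adjacent values were 11.64, 11.54, 11.85 and 11.67 and its tumor values 12.10, 12.10, 12.04 and 12.23, so the groups were separated by only 0.19. The call was lost without M24 (adjusted p = 0.0577) and without M60 (adjusted p = 0.0794), and the difference was 0.40 without M48. Tspan31, which lies beside the cell cycle kinase gene Cdk4, stood at 11.56, 11.44, 11.61 and 11.57 in adjacent liver and at 11.87, 11.74, 12.13 and 11.97 in tumors. The groups did not overlap, with 0.13 between them. The difference of Tspan31 was 0.38 (SE 0.0826, adjusted p = 0.0145), and 0.41 without M48, but it did not pass without M60 (adjusted p = 0.0755).

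In 4 members the groups overlapped. Cd82, known as a suppressor of metastasis, had adjacent values of 11.01, 10.78, 10.98 and 11.00 and tumor values of 10.85, 11.26, 11.44 and 11.20. It was lower in the tumor of M24 and higher in the other 3, with a difference of 0.25 (SE 0.124, adjusted p = 0.177). Tspan3 went from 5.78, 6.87, 6.35 and 6.06 to 6.80, 6.54, 6.57 and 7.26. Its difference was 0.53 (SE 0.255, adjusted p = 0.165) with M48 the only mouse in which the tumor was lower, at -0.34. When M48 was left out, Tspan3 passed the threshold at 0.82 (adjusted p = 0.0309). Cd82 stood at 0.17 without M48.

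Tspan4, which is known from migrasomes, the vesicles left behind by migrating cells, had a difference of -0.08 (SE 0.13, adjusted p = 0.671). Its adjacent values were 9.24, 10.38, 8.88 and 9.55 and its tumor values 9.11, 9.99, 9.25 and 9.37. M48 was the highest in both tissues, and the mice differed far more from each other than the tissues did. Tspan33, one of the tetraspanins that bind the protease Adam10, had 6.31, 5.78, 6.55 and 6.90 in adjacent liver and 6.58, 6.47, 6.30 and 6.58 in tumors. Its difference of 0.10 (SE 0.18, adjusted p = 0.722) was positive in M24 and M48 and negative in M50 and M60. Both values changed sign without M48, to 0.02 for Tspan4 and -0.10 for Tspan33, and neither passed.

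The sequences before the transcription start of the 3 members with the largest differences are shown because in each of these genes all 4 tumors lay above all 4 adjacent pieces. They are the 250 bases before the RefSeq start on build GRCm38.p6, written 5′ to 3′ on the gene's strand, at chr10:115817034-115817283 on the plus strand for Tspan8, chr10:128909095-128909344 on the plus strand for Cd63 and chr6:125494761-125495010 on the minus strand for Cd9. Capitals mark matches, on either strand, to any of 6 motifs: TGTTTAC of forkhead factors, GGGCGG of the GC box, TGANTCA of AP-1, GTTAAT as the core of an HNF1 site, CACGTG of the E-box and CATGTG of the M-box. TGTTTAC was added after the Tspan8 sequence had been read.
Tspan8: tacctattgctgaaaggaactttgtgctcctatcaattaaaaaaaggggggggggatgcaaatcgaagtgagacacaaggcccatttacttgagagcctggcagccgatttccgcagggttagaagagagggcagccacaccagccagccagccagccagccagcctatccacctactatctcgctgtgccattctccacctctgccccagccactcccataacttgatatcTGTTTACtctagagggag
Cd63: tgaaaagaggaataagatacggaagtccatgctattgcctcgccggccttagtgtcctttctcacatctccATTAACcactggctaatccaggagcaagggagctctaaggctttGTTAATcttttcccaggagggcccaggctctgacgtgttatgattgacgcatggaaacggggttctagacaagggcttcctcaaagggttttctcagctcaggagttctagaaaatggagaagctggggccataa
Cd9: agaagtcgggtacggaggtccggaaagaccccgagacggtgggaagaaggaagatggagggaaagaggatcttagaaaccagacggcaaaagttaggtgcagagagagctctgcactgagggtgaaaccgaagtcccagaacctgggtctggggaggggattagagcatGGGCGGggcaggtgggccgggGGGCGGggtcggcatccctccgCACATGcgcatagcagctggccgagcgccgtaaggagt

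The windows differed in composition. That of Tspan8 held 4 CpG sites and that of Cd63 held 6, against a median of 6 over 32851 promoters of the same table, while those of Cd9 and Cd81 held 16 each. Tspan8 had 1 match to TGTTTAC, which 3.17% of all promoters hold. As this string was added after the Tspan8 window had been read, its match there was certain and the share is no measure of it. Cd63 had 2 matches to GTTAAT, a string held by 6.43%, and Cd9 had 2 to GGGCGG (32.7%) and 1 to CATGTG (12.3%). All 10 members had an entry, with 15 windows in all, and 7 of these held GGGCGG, 2 held GTTAAT, 2 held CATGTG and 1 each held TGTTTAC and CACGTG. None of the 15 held TGANTCA, which 6.75% of all promoters hold. No string was common to the windows of Tspan8, Cd63 and Cd9, and a match is a likeness of letters only.

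The rest of the family moved in both directions. Of 22 further tetraspanin genes 20 had a probe of their own and 14 passed the filter, of which 6 rose, 3 fell and 5 did not pass. This is 64.3% called against 31.9% of all tested genes, and the median difference of the 14 was 0.21. Of the 6 that rose, Tspan2 and Tspan18 passed the filter only through their tumor levels and had to be higher there. The share is therefore no measure of the family. Tspan15, which binds Adam10 and directs it to certain substrates, rose by 1.62 (SE 0.308, adjusted p = 0.00921). Its adjacent values were 5.53, 5.86, 4.90 and 5.33 and its tumor values 6.34, 7.04, 7.74 and 6.98. The groups did not overlap, and the difference ran from 0.81 in M24 to 2.83 in M50. Tspan13 rose by 1.36 (SE 0.131, adjusted p = 0.000957), from 5.90, 6.30, 5.65 and 5.65 to 7.21, 7.26, 7.21 and 7.26. The SD of its 4 tumor values was 0.028. Tspan9 rose by 0.84 (SE 0.0792, adjusted p = 0.000875), with a mean of 7.51 in adjacent liver and 8.35 in tumors.

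Smaller rises were those of Tspan2 at 0.64 (adjusted p = 0.0371) and Tspan18 at 0.52 (adjusted p = 0.00938). Both had adjacent means under the filter value, 4.52 and 4.49, and were tested only through their tumor levels, and Tspan2 did not pass without M24 (adjusted p = 0.0979), without M50 (0.127) or without M60 (0.114). Cd53, a tetraspanin of leukocytes, rose by 0.84 (adjusted p = 0.0308), but its groups overlapped, and it did not pass without M50 (adjusted p = 0.0988), without M60 (0.111) or with no replicate block (0.176). The falls were those of Tspan12 at -0.63 (SE 0.107, adjusted p = 0.0064), a partner of the Norrin and Frizzled-4 receptor in vessels, Upk1b at -0.68 (adjusted p = 0.01), a plaque protein of the urothelium, and Rom1 at -0.35 (adjusted p = 0.0357), a photoreceptor protein. Tspan12 was at 10.69, 10.64, 10.93 and 10.83 in adjacent liver and at 10.07, 10.34, 10.12 and 10.04 in tumors, with no overlap. Rom1 lost its call when any of the 4 mice was left out, with adjusted p-values from 0.0548 to 0.134. Of the 6 untested genes Tspan6 had the largest difference, 0.78, with its 4 tumors all above the adjacent values, and the others lay between -0.12 and 0.20.

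**Figure D2:**
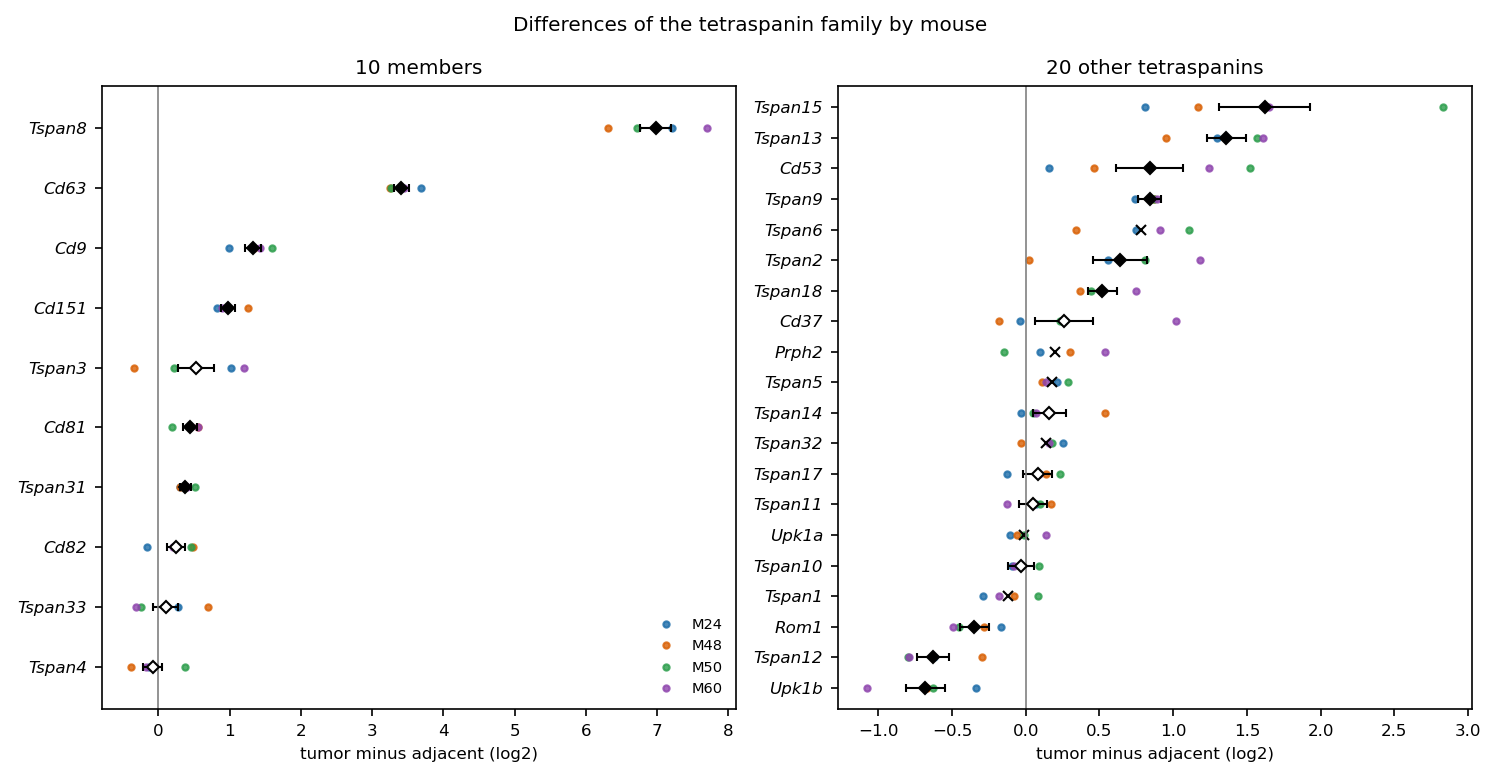
Tumor minus adjacent on the log2 scale (x axis, a different range in each panel) for the 10 members and for 20 other tetraspanins, with 1 coloured point per mouse, diamonds with SE bars for the fitted mean (filled where the adjusted p was under 0.05) and crosses for the mean of untested genes. Tspan8 at 6.98 and Cd63 at 3.41 stand away from the other tetraspanins, whose differences run from -0.68 for Upk1b to 1.62 for Tspan15.

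The tetraspanins that bind Adam10 and carry it to the cell surface, the C8 subgroup, could be followed as a set of 6 genes. Only Tspan15 passed the test among the 5 that were tested, and Tspan33 (0.10), Tspan14 (0.16, adjusted p = 0.342), Tspan17 (0.08, adjusted p = 0.567) and Tspan10 (-0.03, adjusted p = 0.822) did not. Over all tested genes 31.9% passed. Tspan5 was below the filter and stood at 0.18. Adam10 itself, which sheds the outer part of Notch, cadherins and other surface proteins, rose by 0.49 (SE 0.0855, adjusted p = 0.00706). In a list of Adam10 substrates and the Notch pathway 5 of 19 tested genes rose and 2 fell, with 12 that did not pass, which is 36.8% called against 31.9% of all tested genes. The Notch ligand Jag1 rose by 0.71 (adjusted p = 0.00178) and the Notch target Hes1 by 1.27 (adjusted p = 0.00361), while the cadherin Cdh2 (-0.56, adjusted p = 0.00359) and the ephrin Efna5 (-1.08, adjusted p = 0.000875) fell. The Notch ligand Dll4 also rose, by 0.78 (adjusted p = 0.0173), but did not pass without M24 (0.0704) or M50 (0.0673). Notch1 (0.02), Notch2 (0.06), the Notch targets Hey1 (-0.11) and Heyl (0.11) and the ligands Dll1 (-0.17) and Jag2 (-0.09) did not pass. Without M50 the number of rises was 3.

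Most of the listed binding partners of tetraspanins rose. Of 29 tested partners 20 rose, 2 fell and 7 did not pass, with a median difference of 0.65, so that 75.9% were called against 31.9% of all tested genes. The number of rises was 13 without M60 and 15 to 18 without one of the other mice. This list was put together from general knowledge with earlier results of these data known, and nothing particular to it is read from the count. E-cadherin (Cdh1) rose most, by 4.06 (SE 0.183, adjusted p = 0.000111), from a mean of 6.02 to 10.08.

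Of the laminin-binding integrin chains that associate with Cd151, Itga6, Itga3 and Itgb1 rose, and Itga7 and Itgb4 did not pass. The alpha-6 chain Itga6 stood at 4.66, 5.40, 5.05 and 5.06 in the adjacent pieces of M24, M48, M50 and M60 and at 7.61, 8.11, 8.74 and 7.73 in tumors. Every tumor lay more than 2 units above every adjacent piece, and the rise was 3.00 (SE 0.178, adjusted p = 0.000232). The alpha-3 chain Itga3 stood at 5.83, 5.88, 6.06 and 6.22 and, in tumors, at 8.09, 8.19, 7.55 and 7.68, again with no overlap, a rise of 1.88 (SE 0.177, adjusted p = 0.000875). Their common beta chain Itgb1 rose by only 0.32 (adjusted p = 0.0269) and lost its call without M24 (0.104), M50 (0.0658) or M60 (0.118) and when the arrays were centred on their medians (0.0577). The other beta chain of Itga6, Itgb4, stood at 0.07 (adjusted p = 0.641). The alpha-7 chain Itga7 was lower in all 4 mice, at -0.36 (adjusted p = 0.106), with overlapping groups.

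Among the listed partners of Cd9 and Cd81, some rose and others did not pass. Ptgfrn, an EWI protein, had adjacent values of 4.86, 5.36, 4.83 and 4.88 and tumor values of 6.46, 6.37, 6.53 and 6.70, and rose by 1.53 (SE 0.149, adjusted p = 0.000976). The related Igsf8 rose by 0.60 (adjusted p = 0.0139), although it did not pass without M24 (0.0593) or M60 (0.0579). The heparin-binding growth factor Hbegf rose by 0.99 (adjusted p = 0.00491), the adhesion receptor Adgrg1 by 1.43 (adjusted p = 0.00171) and Cldn1, a tight junction protein that pairs with Cd81, by 1.11 (adjusted p = 0.0051). Ifitm1 (-0.17, adjusted p = 0.189) and Ifitm3 (0.15, adjusted p = 0.3), interferon-induced membrane proteins, did not pass. Cr2, a complement receptor in a complex with Cd81 on B cells, was untested, at 0.03. The 2 falls were receptor kinases whose signalling tetraspanins such as Cd82 and Cd151 are known to affect, Egfr with differences from -1.58 in M50 to -0.65 in M48 (SE of the mean 0.161, adjusted p = 0.00517) and Met at -0.81 (SE 0.099, adjusted p = 0.00202). In both, all 4 tumors lay below all 4 adjacent pieces.

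Partners of Tspan8 were measured too. The tight junction protein Cldn7 had adjacent values of 4.64, 4.85, 4.51 and 5.06 and tumor values of 6.13, 5.54, 6.83 and 6.27, and rose by 1.43 (SE 0.242, adjusted p = 0.00619). Epcam, the adhesion protein that joins Tspan8 and Cldn7 in one complex, had a difference of 0.82 (SE 0.256, adjusted p = 0.0504), just short of the threshold. It went from 4.40, 4.70, 4.66 and 4.53 to 5.74, 5.10, 4.68 and 6.04, and M50 hardly differed between tissues, at 0.02. Without M50 Epcam passed (1.08, adjusted p = 0.0283), as it did with no replicate block (adjusted p = 0.0452). Its adjacent mean of 4.57 is under the filter value, so Epcam was tested only through its tumor levels and had to be higher there. Neither the near pass nor these passes are therefore a measure of Epcam. The hyaluronan receptor Cd44 rose by 1.02 (adjusted p = 0.00257).

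**Figure D3:**
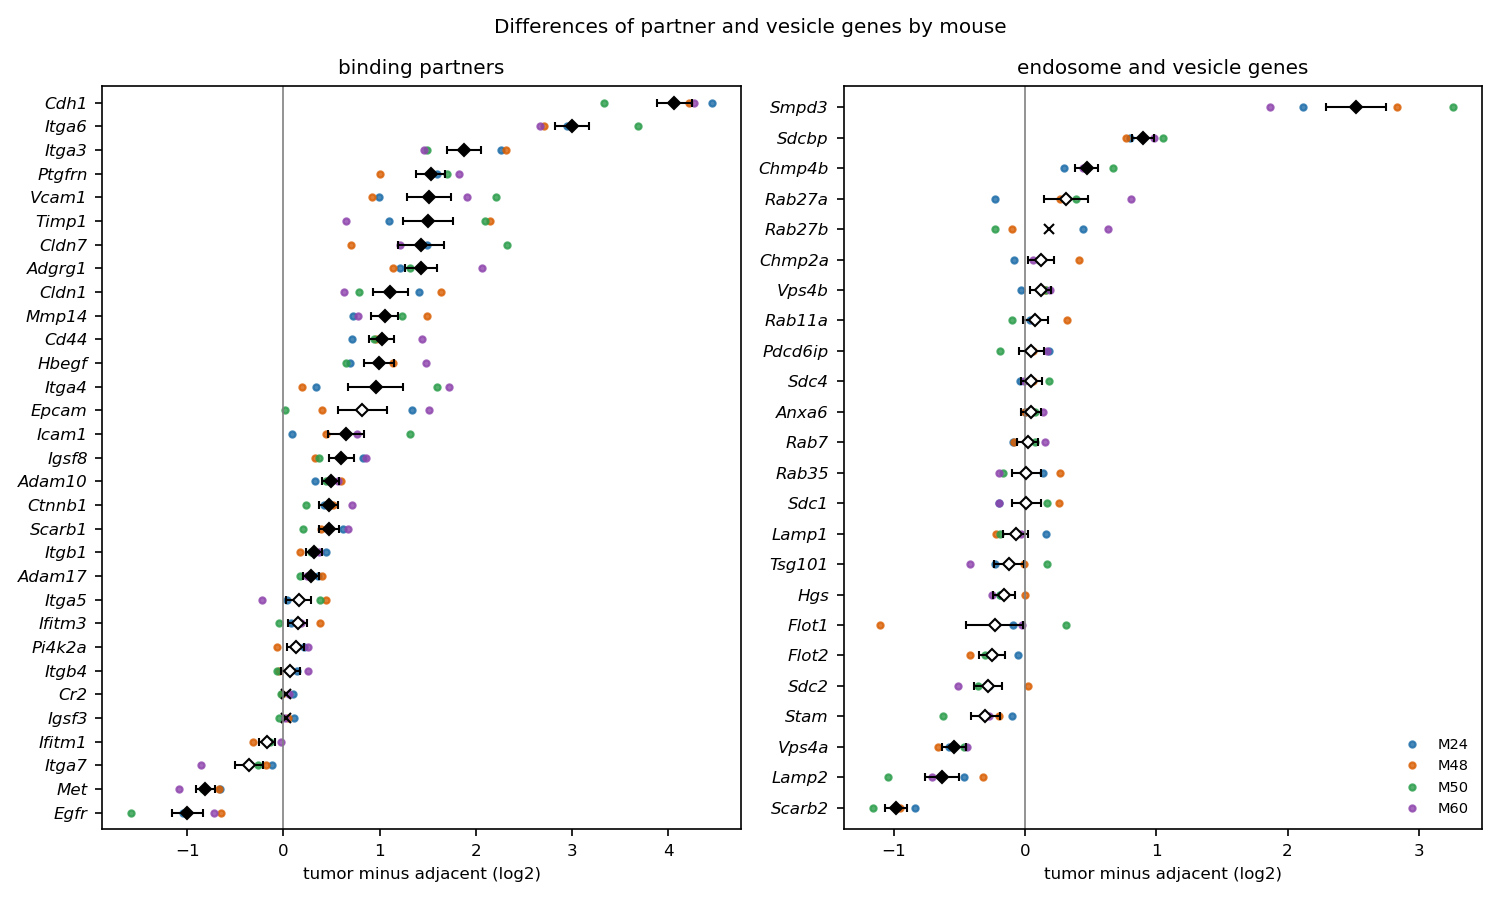
Tumor minus adjacent on the log2 scale (x axis) for 31 measured binding partners of tetraspanins and 24 genes of endosomes and released vesicles, with 1 coloured point per mouse, diamonds with SE bars for the fitted mean (filled where the adjusted p was under 0.05) and crosses for the mean of untested genes. Most partners lie to the right of 0, up to Cdh1 at 4.06, and the vesicle genes lie on both sides of 0, from Scarb2 at -0.98 to Smpd3 at 2.52.

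Most genes of endosomes and vesicle release did not pass. Of 23 tested genes 3 rose, 3 fell and 17 did not pass, with a median of 0.01, and 26.1% were called against 31.9% of all tested genes. The adaptor syntenin (Sdcbp), which binds Cd63 and syndecans and takes part in exosome formation, stood at 9.15, 9.55, 8.91 and 8.88 in adjacent liver and at 9.95, 10.32, 9.97 and 9.86 in tumors. All its tumor values lay above its adjacent ones, and it rose by 0.90 (SE 0.086, adjusted p = 0.000917). The sphingomyelinase Smpd3, which makes the ceramide used in vesicle budding, rose by 2.52 (SE 0.23, adjusted p = 0.000799). Its adjacent mean of 4.55 is under the filter value, so Smpd3 was tested only through its tumor levels and had to be higher there. The size of its rise is uncertain, and the count of rises includes it. The ESCRT subunit Chmp4b rose by 0.47 (adjusted p = 0.00888).

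Of the listed membrane proteins that share the lysosome with Cd63, Scarb2, Lamp1 and Lamp2, 0 rose. Scarb2 fell by 0.98 (SE 0.0853, adjusted p = 0.000642) and Lamp2 by 0.63 (SE 0.13, adjusted p = 0.012, and 0.0531 without M60), while Lamp1 stood at -0.07 (adjusted p = 0.626). Vps4a, the ATPase that takes ESCRT complexes apart, fell by 0.54 (adjusted p = 0.00561). Tsg101 (-0.12) and Pdcd6ip (0.05), commonly used as exosome markers, did not pass. With no replicate block 5 genes of the list fell rather than 3.

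The genes next to the members on the chromosome were compared with them. Tspan8 lies on chromosome 10 beside Lgr5, a stem cell receptor and Wnt target, and Lgr5 fell by 1.88 (SE 0.128, adjusted p = 0.000339) where Tspan8 had its large positive difference. On its other side Ptprr was below the filter, at -0.04. Beside Cd63, also on chromosome 10, the retinol dehydrogenase Rdh5 rose by 0.87 (adjusted p = 0.00162), and Gdf11 was untested at 0.04. Cd151 and Tspan4 lie close together on chromosome 7 with Polr2l between them, and Cd151 rose while Tspan4 stood at -0.08. Polr2l rose by 0.31 (adjusted p = 0.026), but its groups overlapped and it did not pass without M24 (0.0748), M48 (0.0696) or M60 (0.12), with no replicate block (0.0544) or with the arrays centred on their medians (0.0631). Cdk4 beside Tspan31 rose by 0.40 (adjusted p = 0.0158), nearly as Tspan31 did (0.38), and lost its call without M50 (0.0588) or M60 (0.0708). The neighbours Plekhg6 (-0.04) and Vwf (0.51, adjusted p = 0.162) of Cd9 and Tssc4 (0.02) of Cd81 did not pass. Smo beside Tspan33 rose by 0.89 (adjusted p = 0.00319), Chid1 beside Tspan4 by 0.82 (adjusted p = 0.00165) and Rcn2 beside Tspan3 by 0.64 (adjusted p = 0.011). Peak1, also beside Tspan3, rose by 0.28 (adjusted p = 0.04) but did not pass when any 1 mouse was left out (0.0942 to 0.146). Os9 beside Tspan31 fell by 0.53 (adjusted p = 0.00394), and Ahcyl2 beside Tspan33 fell by 0.39 (adjusted p = 0.0148) but did not pass without M24 (0.054) or M50 (0.0585). Zfc3h1, on the Lgr5 side of Tspan8, fell by 0.37 (adjusted p = 0.0387) and did not pass when any 1 mouse was left out (0.0504 to 0.121). In all, 35 distinct genes other than tetraspanins were among the 2 nearest measured genes on each side of a member. Of the 24 that were tested 7 rose and 4 fell, against 16.3% and 15.7% of all tested genes.

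**Figure D4:**
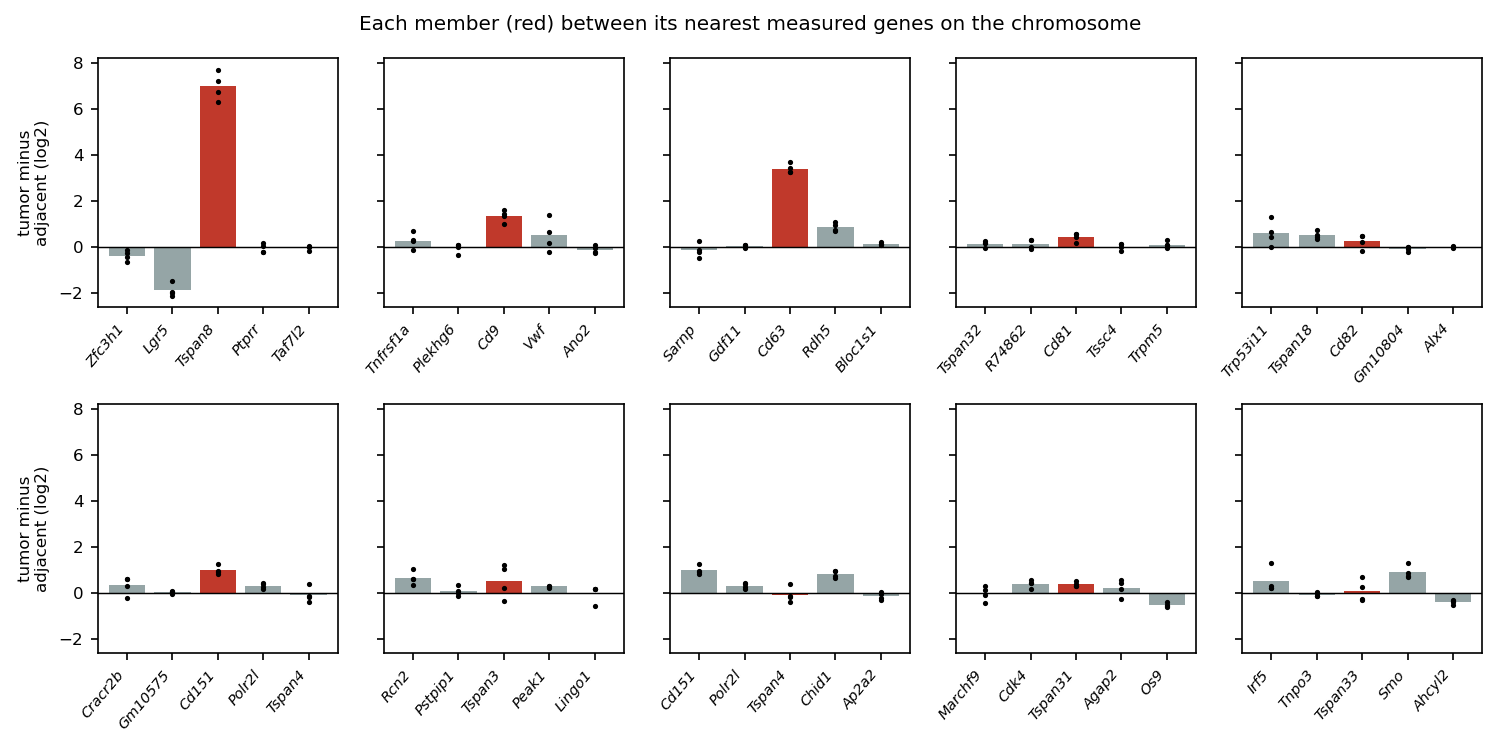
Mean tumor minus adjacent on the log2 scale (y axis, bars from 0) for each of the 10 members, in red, and for the 2 nearest measured genes on each side in the reference gene order, in grey, with 1 black point per mouse (n = 4). The bars of Tspan8 (6.98) and Cd63 (3.41) are taller than those of their neighbours, and the bar of Lgr5 next to Tspan8 points down to -1.88.

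Markers of other cell types were measured beside the members, and their part in the results was not tested. Their counts stand beside 16.3% of all tested genes that rose and 15.7% that fell. Gut epithelial markers, listed because Tspan8 is abundant there, were measured in 10 cases and tested in 6, and 4 rose and 0 fell (2 rose without M24). Of the 4, Cdh17 (adjacent mean 3.59) and Krt20 (3.21) passed the filter only through their tumor levels, so they had to be higher there and the count is no measure of the list. The summed level of the 10 measured genes ran from 8.96 to 10.27 (log2) in adjacent liver and from 11.39 to 12.15 in tumors. In adjacent liver Fabp2 was the highest of them, at 8.82, 7.83, 9.91 and 9.60 in M24, M48, M50 and M60, so that sum largely reflects Fabp2. The differences were 5.28 for Tff3, 4.23 for Cdh17, 2.87 for Krt20 and 0.90 for Fabp2, the size for Cdh17 and Krt20 being uncertain at such low adjacent levels. Fabp2 did not pass without M24 (adjusted p = 0.104), without M50 (0.0616) or with no replicate block (0.135). Lgals4, lower in all 4 mice (-0.21, adjusted p = 0.166), and Cdx1 (0.17, adjusted p = 0.275) did not pass. Vil1 (2.02, with M50 at -0.07) and Gpa33 (-0.21) were untested. The defining intestinal factor Cdx2 and the mucin Muc2 had means from 4.02 to 4.13, under the filter value, in both tissues. Of 8 measured bile duct markers 7 were tested, and 4 rose and 0 fell, with summed levels of 8.17 to 8.52 in adjacent liver and 8.87 to 9.70 in tumors. Prom1, a membrane protein of progenitor and duct cells, rose by 2.29 (adjusted p = 0.000444) with overlapping groups. Sox9 rose by 1.36 (adjusted p = 0.00106), Krt7 stood at 0.30 (adjusted p = 0.401) and Cftr was under the filter value in both tissues (3.10 and 3.58).

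Of the 6 leukocyte markers, listed beside Cd53, 3 rose and 0 fell, against 16.3% and 15.7% of all tested genes. Their summed level was 10.23 to 11.38 in adjacent liver and 10.79 to 11.49 in tumors. A relation of Cd53 to these markers was not tested. Coro1a rose by 0.93 (adjusted p = 0.0115), and Ptprc stood at 0.89 (adjusted p = 0.0544). With no replicate block 1 of the 6 rose, without M60 again 1 did and without M50 0 did. Of the B and T or NK cell markers limma called 0 of 3 and 0 of 4 tested genes, with 0 and 3 higher at an unadjusted p under 0.05, and 2 of the T and NK cell markers rose without M48. Endothelial markers rose in 6 of 10 cases and fell in 0, with summed levels of 10.88 to 11.21 against 11.27 to 11.72, Pecam1 at 1.02 (adjusted p = 0.0077) and Stab2 at 0.29 (adjusted p = 0.102). The number of endothelial rises was 4 with the arrays centred on their medians, with no filter, without M50 or without M60. With no replicate block it was 7. Of 10 macrophage markers 1 rose (Cd68, by 0.98, adjusted p = 0.0405) and 3 fell (Timd4, Marco and Clec4f). With no replicate block 0 did either, and 3 rose without M24 but 0 without M48, M50 or M60. The summed levels of 11.18 to 13.18 and 11.80 to 13.18 covered almost the same range. Fibroblast and stellate cell markers rose in 4 of 9 tested cases and fell in 0, with Col1a1 at 1.92 (adjusted p = 0.00333). The summed levels were 11.35 to 12.38 and 11.98 to 12.23. The median difference of these tested markers was negative for M48 (-0.37) and M50 (-0.08) but positive for M24 (0.72) and M60 (1.13). Hhip of this list was untested, at -0.79, with its tumors all below its adjacent pieces. With the filter on the lowest 20%, or with no filter, 1 marker of the list fell. Erythroid and platelet markers gave 0 calls among 2 and 3 tested genes by limma, with 1 gene each at an unadjusted p under 0.05. Among the tested genes of the gut, bile duct, endothelial and fibroblast lists, 0 were lower even at an unadjusted p under 0.05. Of the leukocyte markers 1 was lower at that level.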

How the data were processed

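Total RNA of 8 snap-frozen liver pieces (4 tumor, 4 adjacent) was amplified from 0.2 ug, labelled with biotin and hybridised to 1 array each, per the labels' protocols. The values are on the log2 scale in the table that the authors deposited, which holds 28874 probes and 0 sample columns that were not used. The log base was read from the range, 1.918 to 14.49, and the nearly equal quantiles were taken as normalization between arrays. MAS5 is named in the submitters' processing notes, without a version and without its role. Background correction, summarization and detection calls are not stated in any source used here. The number of arrays limits the precision, and low signals can hold mostly background.

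Genes were named through 21789 probes with a single symbol, while 1621 with several and 5464 with no entry were left out. Each gene was represented by the probe whose mean over the 8 arrays was highest, and each of the 10 members had only 1 such probe. Promoter sequences came from RefSeq, build GRCm38.p6, and the reference gene table of that assembly served only for gene order. Values were fitted with limma 3.58.1 in R 4.3.3 (lmFit and eBayes, trend = TRUE), with mouse as a block, 3 residual and 3.643 prior degrees of freedom, two-sided tests and Benjamini-Hochberg adjustment over 11963 genes. The design text says that both tissues came from the same mice. Deviations from the group means correlated between the tissues of a mouse at 0.313, 0.421, 0.0986 and 0.111 (M24, M48, M50 and M60), and at -0.378 to 0.189 between different mice. No 2 arrays were identical. Tested on simulated data built on these 11963 genes, the fit found 38.5% of changes of 1.5-fold, 72.9% at 2-fold and 85.4% at 4-fold, with 3.67% of calls false. Each simulation changed only 200 genes and used independent normal noise, whereas the fit called 31.9% of the genes in the data. These rates therefore need not hold for the data.

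The members, the lists of partners, vesicle genes and markers, and the tests were chosen with earlier results of these data known. Genes were named by a rule: the members, every other tetraspanin past the threshold, up to 4 genes of each list with the smallest p and up to 3 that did not pass, the 5 genes nearest to Tspan8 and neighbours of members. Not every gene the rule allows is named, and other list genes in the text were chosen after their values were seen. Alternatives were the fit with no replicate block, other filters, no trend, quantile or median scaling, the mean over probes, and leaving out each mouse.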

Additional observations from a re-analysis of the deposited data

Results flagged for a closer look

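Among the 10 members and the 9 other tetraspanins past the threshold, 57 groups of 4 values (adjacent levels, tumor levels and differences) were searched for 1 sample far from the other 3, by the share of the group's range that its gap takes up. Chance alone picks out about 1 in 20 groups, and 3 were found. The adjacent level of Cd82 was lowest in M48, at 10.78 against 10.98 to 11.01 in the other mice. The adjacent level of Tspan2 was lowest in M60, at 4.22 against 4.60 to 4.67. The difference of Tspan9 was smallest in M24, at 0.74 against 0.87 to 0.89 in the others.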

How the results depend on the processing

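Of the 110 values of the 10 members under 11 alternatives, 106 kept their direction where called and their side of the threshold. The call was lost by 3 (Cd81 without M24 and without M60, Tspan31 without M60) and gained by 1 (Tspan3 without M48). Other filters, no trend and no replicate block could not change a difference, only its adjusted p. The same holds for the mean over probes, as each member had 1 probe. Much of this agreement was therefore fixed in advance. The number of members higher in tumors was 6 under every setting that kept the 4 mice and 4 to 7 when a mouse was left out, and the number lower was 0 throughout. With no replicate block the same 6 members passed, with a difference for Tspan8 of 6.98, and Cd53 lost its call (adjusted p = 0.176). Among 154 values of the other tested tetraspanins 10 lost the call. Over all tested genes, leaving out a mouse gave 1246 to 1754 genes higher and 1070 to 1722 lower, against 1945 and 1874. Centring the arrays on their medians gave 1673 higher and 2155 lower, and moved the median of all tested genes to -0.0551. With 4 pairs, small differences of members such as Cd82 and Tspan33 are not shown to be absent.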
